A study of Mus musculus with 18 samples.

Results

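The genes described here encode the mitochondrial respiratory chain and the ATP synthase of mouse hindpaw epidermis and dorsal root ganglia (DRG). They were chosen by name alone: every probe set of the array that was paired with exactly 1 gene, and whose gene symbol begins with Nduf, Uqcr or Atp5, or with Cox4 to Cox8, or is Sdha, Sdhb, Sdhc or Sdhd. The rule gave 114 probe sets for 89 genes, out of 21789 probe sets for 19938 genes with a single gene name. Complex I (Nduf) had 48 probe sets for 43 genes, 7 of them assembly factors named Ndufaf. Complex II (Sdh) had 4 probe sets for 4 genes, complex III (Uqcr) 11 for 8, complex IV (Cox) 21 for 17 and complex V (Atp5) 30 for 17. A further 6 probe sets carried such a name together with a second gene (Cox7c, Ndufb4 and Ndufs5 with copies of themselves) and were not counted.

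The arrays came from a study of TRPA1, an irritant-gated ion channel, in the keratinocytes of the skin. Mutant mice (K14Cre-Trpa1 fl/fl) carry Trpa1 alleles flanked by loxP sites and Cre recombinase under the keratin 14 promoter, and control mice (K14Cre-Trpa1+/+, labelled wild type) carry the same Cre with unmodified Trpa1. This promoter is active in basal keratinocytes and not known as a driver in sensory neurons. The 18 arrays formed 6 groups of 3. Glabrous hindpaw epidermis came from both genotypes, naive or after CFA, and lumbar DRG came from naive mice of both genotypes. CFA is complete Freund's adjuvant, a suspension of killed mycobacteria in oil that inflames the paw, of which 50 µl had been injected into the hindpaw 2 days before the epidermis was taken. Mice were adult males of at least 7 weeks on a mixed background that included C57BL/6, CBA and Swiss Webster. Control and mutant colonies had been bred apart for many generations, so that genotype and colony cannot be told apart, and no vehicle-injected group was arrayed, so that the adjuvant, the injection and the time since it cannot be told apart. The 3 arrays of a group are described by the study as biological replicates.

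The respiratory chain sits in the inner mitochondrial membrane. Complexes I and II take electrons from NADH and succinate, ubiquinone carries them to complex III, cytochrome c carries them to complex IV, and complex IV passes them to oxygen. Complexes I, III and IV pump protons across the membrane, and complex V, the ATP synthase, lets them flow back to make ATP. Complex II is also an enzyme of the citric acid cycle and is wholly encoded in the nucleus, whereas the other complexes join nuclear subunits, such as those measured here, to a few made from mitochondrial DNA. Several complex IV subunits exist as heart and muscle, lung or testis isoforms beside the form found in most tissues. In epidermis the basal keratinocytes hold most mitochondria, which are lost as the cells cornify, while sensory neurons depend heavily on oxidative phosphorylation.

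Promoter sequences are shown for members called lower or higher after CFA in both genotypes, since nuclear respiratory genes are known for shared promoter motifs. RefSeq (GRCm38.p6) gave 78 promoters of 300 bases, 250 before and 50 after the start of transcription, for 73 of the 89 genes. The 4 promoters below belong to 3 genes whose signal fell in both genotypes, Cox6a1 (chr5:115348909-115349208, minus strand), Ndufs8 (chr19:3912725-3913024, minus strand) and Atp5d (chr10:80142065-80142364, plus strand, the downstream of its 2 listed starts), and to Cox7a2l (chr17:83514284-83514583, minus strand), which rose. Capitals mark the letters searched for on either strand, CGCANGCG (the core of the NRF1 site) and CCGGAAG (the ETS core bound by GABP).
Cox6a1: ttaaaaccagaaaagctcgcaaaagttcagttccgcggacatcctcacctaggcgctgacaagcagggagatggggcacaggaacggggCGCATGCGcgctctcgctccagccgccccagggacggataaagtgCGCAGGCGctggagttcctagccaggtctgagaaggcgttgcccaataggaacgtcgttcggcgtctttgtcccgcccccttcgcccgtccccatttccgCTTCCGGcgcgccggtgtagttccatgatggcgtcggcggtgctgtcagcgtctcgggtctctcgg
Ndufs8: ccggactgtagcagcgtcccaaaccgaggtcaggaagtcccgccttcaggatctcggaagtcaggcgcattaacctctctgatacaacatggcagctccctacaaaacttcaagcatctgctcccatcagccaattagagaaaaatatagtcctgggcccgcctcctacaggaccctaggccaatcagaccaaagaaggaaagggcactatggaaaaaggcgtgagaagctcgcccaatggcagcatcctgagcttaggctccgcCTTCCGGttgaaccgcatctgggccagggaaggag
Atp5d: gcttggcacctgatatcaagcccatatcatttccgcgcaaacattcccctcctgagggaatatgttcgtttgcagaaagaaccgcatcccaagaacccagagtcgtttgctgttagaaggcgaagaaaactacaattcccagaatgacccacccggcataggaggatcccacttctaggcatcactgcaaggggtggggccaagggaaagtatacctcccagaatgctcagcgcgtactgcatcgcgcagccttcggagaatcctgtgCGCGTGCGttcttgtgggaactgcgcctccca
Cox7a2l: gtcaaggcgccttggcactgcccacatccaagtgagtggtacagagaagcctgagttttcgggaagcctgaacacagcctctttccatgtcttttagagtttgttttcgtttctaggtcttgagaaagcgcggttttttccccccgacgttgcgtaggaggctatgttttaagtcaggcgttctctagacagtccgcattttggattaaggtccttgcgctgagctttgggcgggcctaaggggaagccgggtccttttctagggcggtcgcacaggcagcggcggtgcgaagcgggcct
The Cox6a1 window held the NRF1 letters at 2 places, 1 of which reads the same on both strands, and the ETS letters once on the opposite strand. The Ndufs8 window held the ETS letters alone and the printed Atp5d window the NRF1 letters alone, both on the opposite strand. The window of the upstream Atp5d start (chr10:80142025-80142324), which is not printed, held none of the 4 motifs. The Cox7a2l window held none of the 4 motifs searched.

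Across the chain, the NRF1 letters were found in 31 of the 78 member promoters (39.7%), against 8.21% of all 32851 promoters of the same length. The ETS letters stood in 18 (23.1%, against 8.86% of all), the YY1 core ATGGCGG in 12 (15.4%, against 4.05%) and the element AAGGTCA read by oestrogen-related receptors in 7 (8.97%, against 4.72%). In 11 member promoters the NRF1 letters could be read on both strands at 1 place and were counted once for that promoter, and in 0 did the letters of different motifs overlap. NRF1 letters were present in the promoters of 6 of the 12 matched genes that fell in both genotypes after CFA, Atp5d, Atp5l, Cox6a1, Ndufa7, Ndufa8 and Uqcr10, beside 28 of all 73 matched members. Of the same 12 genes, 3 held the ETS letters, 1 the AAGGTCA element and 1 the YY1 core, beside 18, 7 and 11 of the 73. Only 1 of the 3 genes that rose in both genotypes had a listed promoter, so motif and direction could not be compared. Such a match describes letters and does not show that a factor binds there.

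On the array, the targeted gene Trpa1 lay below background on each of the 12 epidermal arrays (log2 signal 3.61 to 3.97) and above it on all 6 DRG arrays, where control arrays read 8.89 to 9.08 and mutant arrays 8.44 to 8.84 (difference -0.38, unadjusted p = 0.00702, limma adjusted p = 0.482). Epidermal Trpa1 therefore gives no check of the genotype labels. A probe set was taken as above background where it exceeded the 95th percentile of 1218 chemoreceptor probe sets (Olfr, Vmn1r, Vmn2r and Taar genes) on its own array. All 9 keratinocyte markers measured stood above background on every epidermal array and all 10 sensory neuron markers on every DRG array. Arrays of the same group correlated at 0.986 to 0.993 over all genes. Of the 114 probe sets, 110 were above background on all 12 epidermal arrays and 109 on all 6 DRG arrays, and the exceptions were Cox7b2, Cox6b2, Cox8b, Ndufaf6 and, in DRG, Ndufa4l2.

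The mean signal of complex I was lower after CFA in both genotypes and that of complex II higher, while the means of the other complexes moved by less. Complex I averaged 8.01 to 8.10 on naive control arrays, 7.98 to 8.02 on naive mutant arrays, 7.86 to 7.93 on CFA control arrays and 7.81 to 7.92 on CFA mutant arrays, so that naive and CFA arrays did not overlap within either genotype. The mean over all gene-paired probe sets did not overlap either and was also lower after CFA. It was 6.005 to 6.011 on naive and 5.976 to 5.991 on CFA control arrays, and 5.997 to 6.007 and 5.981 to 5.988 on mutant arrays. The CFA minus naive difference of the complex I mean was -0.15 in control and -0.13 in mutant mice on the log2 scale, each beyond the larger within-group SD (0.0502 and 0.0588), and -0.06 and -0.07 under a further quantile normalization. Complex II differed by 0.16 in control (SD 0.176) and 0.24 in mutant epidermis (SD 0.148), with control groups that overlapped and mutant groups that did not. For complex III (-0.08 and -0.06, control and mutant), complex IV (0.05 and -0.01) and complex V (-0.07 and -0.06) the shift was of the order of the within-group SD (0.021 to 0.0838), and a further quantile normalization turned the sign for complex III in both genotypes (0.0477 and 0.0168), complex IV in mutant (0.0186) and complex V in control epidermis (0.0187). Arrays taken after CFA had lower upper quartiles over all genes (7.35 to 7.48) than naive arrays (7.53 to 7.61), and the part of that offset in the falls of these genes was not tested. In bulk tissue, fewer cells of a type and less RNA per cell cannot be told apart.

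**Figure D1:**
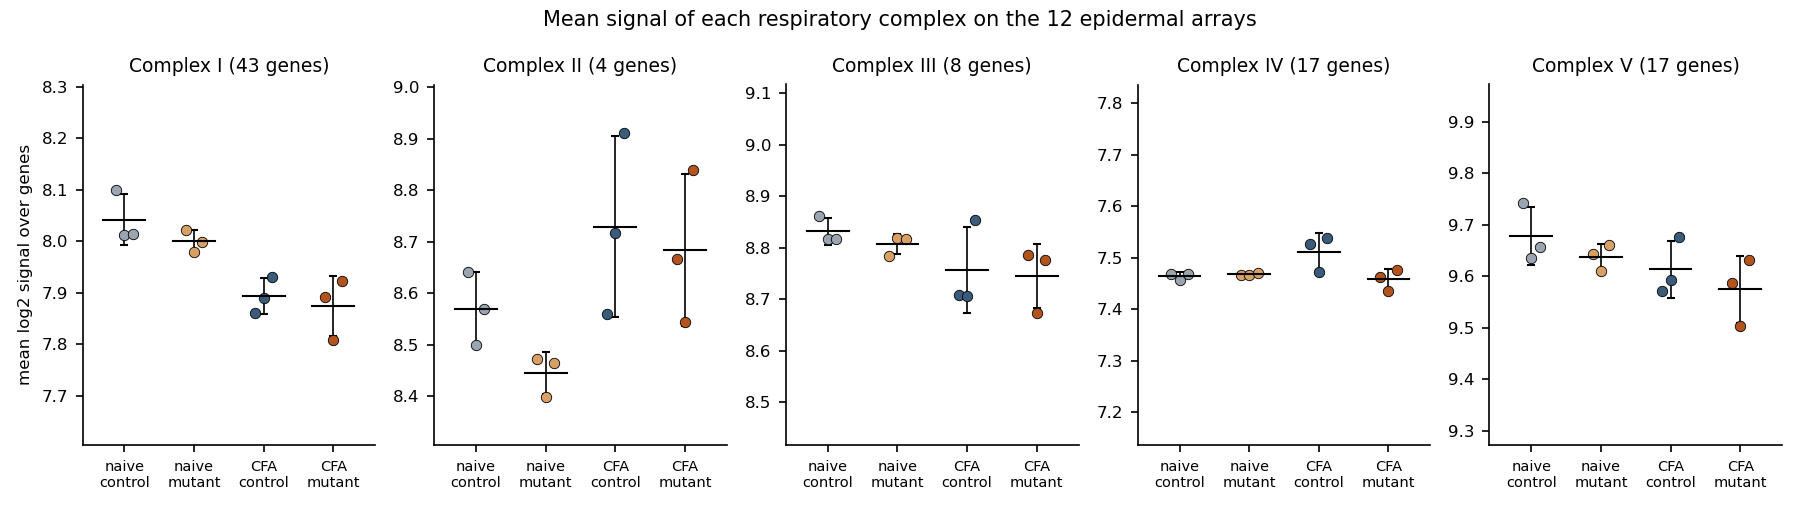
Each point is the mean log2 signal of 1 epidermal array over the genes of a complex (probe sets of 1 gene averaged first), with the group mean as a line and the SD as a bar; every panel spans the same range of the log2 axis. The 6 CFA arrays sit at 7.81 to 7.93 for complex I, below the 6 naive arrays at 7.98 to 8.10, whereas the shifts of complexes III to V are small and turn in sign for complex III, complex IV in mutant and complex V in control epidermis under a further quantile normalization. The mean over all gene-paired probe sets, not drawn, was also lower on the 6 CFA arrays (5.976 to 5.991) than on the 6 naive arrays (5.997 to 6.011).

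The first comparison asked how these genes differ between inflamed and naive control epidermis. After CFA, 23 probe sets of 16 genes fell and 6 probe sets of 5 genes rose (limma, adjusted p under 0.05). Those that fell included the core subunit gene Ndufs8 and the accessory subunit gene Ndufa3 of complex I, the Ndufa4 paralogue Ndufa4l2, the delta and g subunits of the ATP synthase (Atp5d, Atp5l) and Cox6a1, the broadly expressed form of a complex IV subunit. The strongest rise was that of Cox7a2l, which helps complexes III and IV join into a supercomplex. Of all 23410 probe sets tested, 14.8% were called lower and 11.5% higher. With 1 probe set a gene, the chain had 16 of 89 genes lower (18%, against 15.6% of all genes) and 5 higher (5.62%, against 11.4%). The shares called lower are thus close to the background, and the median difference over the 114 probe sets was -0.09, beside 0.03 over all probe sets. The members are mostly brighter than the median probe set, and the upper percentiles of the arrays over all probe sets were lower after CFA. The 90th percentile of all probe sets was 8.91 to 8.95 on naive control and 8.68 to 8.81 on CFA control arrays. The part of that offset in the members' median was not tested. Under a further quantile normalization the split became 15 lower and 13 higher.

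In complex I, 10 probe sets of 9 genes fell and 0 rose. Ndufa4l2, known to be induced by hypoxia, is a paralogue of Ndufa4, which bears a complex I name but is now counted as a complex IV subunit. It read 10.05, 9.84 and 9.95 on the naive control arrays and 9.39, 9.22 and 8.72 on the CFA control arrays. The groups did not overlap, and the difference was -0.84 ± 0.16 (SE, n = 3 a group, adjusted p = 0.00435). Ndufs8, which carries iron-sulphur clusters of the electron path, read 9.22, 9.17 and 9.04 in naive and 8.70, 8.64 and 8.56 in inflamed control epidermis, a difference of -0.51 ± 0.09 (adjusted p = 0.00293). Ndufa3, an accessory subunit, went from 9.25 to 9.32 on naive arrays down to 8.77 to 8.95 (-0.42 ± 0.09, adjusted p = 0.00681). Both probe sets of the accessory subunit Ndufc1 fell, by 0.40 and 0.29. The accessory subunits Ndufb6, Ndufb8, Ndufa7 and Ndufa8 fell by 0.39, 0.38, 0.34 and 0.29, and Ndufaf7, an assembly factor that methylates a core subunit, fell by 0.32. The remaining 38 probe sets of complex I did not pass the test, and the complex I median was -0.10.

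Complex II was not called in control epidermis in any of its 4 genes. The flavoprotein gene Sdha differed by 0.14, the iron-sulphur gene Sdhb by 0.24 and the membrane anchors Sdhc and Sdhd by -0.01 and 0.26, with adjusted p between 0.132 and 0.963. In complex III, 2 of 11 probe sets fell. The small subunit gene Uqcr10 read 8.13, 8.05 and 7.91 in naive and 7.68, 7.43 and 7.73 in inflamed control epidermis (-0.42 ± 0.11, adjusted p = 0.0204), and Uqcrfs1, the Rieske iron-sulphur protein, fell by 0.26 (adjusted p = 0.0442).

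Complex IV moved in both directions. Cox7a2l rose on both of its probe sets: the first read 8.89, 8.78 and 8.83 in naive and 9.78, 9.63 and 9.76 in inflamed control epidermis (0.89 ± 0.09, adjusted p = 9.22e-05), and the second 8.73, 8.62 and 8.70 against 9.09, 9.26 and 9.46 (0.59 ± 0.11, adjusted p = 0.00366). Cox4i1, the common form of subunit 4, rose by 0.45 ± 0.10 (adjusted p = 0.0108), whereas its lung form Cox4i2 differed by 0.01 and was not called. Cox6a1 read 10.79, 10.75 and 10.77 on naive and 10.24, 10.38 and 10.31 on CFA arrays, a fall of 0.47 ± 0.08 (adjusted p = 0.00315). Its heart and muscle counterpart Cox6a2 rose by 0.51 ± 0.14 (adjusted p = 0.0253) from a dim level of 5.78 to 6.03. Cox7a2 fell by 0.29, and the dim testis isoform gene Cox8c rose by 0.39. The broadly expressed Cox8a and Cox6b1 differed by -0.25 and -0.26 and did not pass the test (adjusted p = 0.0562 and 0.0629).

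Skeletal muscle markers, 13 with Cox6a2 among them, had a mean log2 signal of 5.15 to 5.22 on naive control and 5.26 to 5.44 on CFA control arrays. Of the 13, 9 were above background on every epidermal array. Called higher were 3 (Mb, Cox6a2, Atp2a1), while Myh1, below background on all epidermal arrays, was called lower. Mylpf, above background on all 12, read 5.17 to 5.24 in naive and 4.93 to 5.17 in inflamed control epidermis. The median CFA minus naive difference was 0.15 for the muscle list in control epidermis. It was 0.21 for adipocyte, 0.16 for endothelial and 0.16 for sensory neuron markers. These 3 lists were mostly dim: 2 of 6, 0 of 4 and 3 of 10 of their markers were above background on every epidermal array. None of their markers was called higher. No marker list had a negative median there. The part of muscle in the Cox6a2 result was not tested. Keratinocyte markers averaged 11.96 to 12.04 on the 6 naive and 12.07 to 12.16 on the 6 CFA arrays, with Krt15, Krt14 and Trp63 called higher in control epidermis. The 8 markers of macrophages and monocytes averaged 5.66 to 5.75 on naive control and 5.75 to 5.90 on CFA control arrays, with 3 called higher and 1, Cd68, lower by 1.77. The 3 Langerhans cell markers averaged 7.46 to 7.59 and 7.82 to 7.92, with 2 called higher (Cd74 and Cd207). The part of these cells in the results was not tested.

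Complex V had 9 probe sets of 3 genes called lower and 1 gene called higher. Atp5d, the delta subunit of the catalytic head's stalk, read 10.52, 10.59 and 10.57 in naive and 10.05, 9.96 and 9.97 in inflamed control epidermis (-0.57 ± 0.08, adjusted p = 0.000911). All 6 probe sets named for Atp5l, subunit g of the membrane part, fell by 0.47 to 0.56, and their near-identical readings mean that they are not 6 independent observations. Both probe sets of Atp5g1, 1 of 3 genes for the ring subunit c, fell by 0.42 and 0.39, while the 3 probe sets of its sister gene Atp5g2 differed by -0.11 to -0.20 and the probe set of Atp5g3 by 0.22, none of them called. Atp5a1, the alpha subunit of the catalytic head, rose by 0.36 ± 0.10 (adjusted p = 0.0266), from 10.73, 10.50 and 10.53 to 10.87, 10.92 and 11.05. No member of any complex reached a 2-fold difference in this or any other comparison.

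Mutant epidermis gave the same question in animals with the floxed allele. There 22 probe sets of 15 genes fell and 10 probe sets of 10 genes rose after CFA, against 13.1% of all probe sets called lower and 12.9% called higher. With 1 probe set a gene, 15 of 89 genes were lower (16.9%, against 13.4% of all genes) and 10 higher (11.2%, against 12.7%). The count of 10 higher was smaller whichever 1 array was left out: it was 5 without naive mutant replicate 1 or 3 and 6 without CFA mutant replicate 1 or 2. The count lower stayed between 20 and 24.

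In complex I of mutant epidermis, Ndufs8 read 9.21, 9.07 and 9.18 in naive and 8.57, 8.36 and 8.63 in inflamed tissue, a fall of 0.63 ± 0.09 (adjusted p = 0.00155). Ndufc1 fell by 0.54 and 0.43 on its 2 probe sets, Ndufa3 by 0.53, Ndufa7 by 0.51, Ndufb8 by 0.48, Ndufa8 by 0.36 and Ndufa13, known also as GRIM-19, by 0.28. Ndufa4l2 read 10.34, 10.06 and 10.22 in naive and 9.45, 9.94 and 9.68 in inflamed mutant epidermis (-0.52 ± 0.13, adjusted p = 0.0217). Against these falls, the accessory subunit gene Ndufb2 rose by 0.30 and the assembly factor gene Ndufaf2 by 0.29.

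Sdha was called in the mutant, where it read 9.06, 8.91 and 8.98 in naive and 9.48, 9.30 and 9.46 in inflamed epidermis (0.43 ± 0.08, adjusted p = 0.00657). The control arrays covered 9.23 to 9.34 in naive and 9.25 to 9.56 in inflamed tissue, so that the inflamed groups overlapped and the naive mutant group was the low one (naive mutant minus control -0.29, unadjusted p = 0.00401, adjusted p = 0.418). The other Sdh genes differed by 0.25 (Sdhb), 0.03 (Sdhc) and 0.25 (Sdhd) and were not called. In complex III, Uqcr10 fell by 0.52 ± 0.12 (adjusted p = 0.0135), and Uqcrh, the hinge protein beside cytochrome c1, rose by 0.32 ± 0.07 (adjusted p = 0.0128). Uqcrfs1 (-0.18), Uqcr11 (-0.16), Uqcrq (-0.12) and Uqcrc2 (0.11) came next in size and were not called.

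In complex IV of mutant epidermis, Cox6a1 fell by 0.60 ± 0.09 (adjusted p = 0.0015) and Cox7a2 by 0.38, while Cox6a2 rose by 0.52 ± 0.12 (adjusted p = 0.0145). The 13 muscle markers averaged 5.21 to 5.26 on naive mutant and 5.32 to 5.35 on CFA mutant arrays, and Cox6a2 was the 1 of them called. Macrophage and monocyte markers averaged 5.54 to 5.79 and 5.39 to 5.54, with 1 called higher and 2 lower, and Langerhans cell markers 7.42 to 7.52 and 7.38 to 7.57, with 0 called. Cox7a2l rose on its first probe set, from 9.05, 9.01 and 8.99 to 9.41, 9.42 and 9.66 (0.48 ± 0.09, adjusted p = 0.00508), but the second read 8.95, 8.63 and 8.73 against 8.97, 8.53 and 8.97 and was not called (0.05 ± 0.14, adjusted p = 0.804). Cox7b2 was called lower too, but it lay below background on all 12 epidermal arrays, and no fold is given for it. Cox8c differed by 0.35 and was not called (adjusted p = 0.0665). In complex V, Atp5d fell by 0.61 ± 0.08 (adjusted p = 0.00113), the 6 probe sets of Atp5l by 0.44 to 0.57 and the 2 of Atp5g1 by 0.42 and 0.35. Atp5a1 rose by 0.37 ± 0.07 (adjusted p = 0.00613), Atp5g3 by 0.29, the catalytic beta subunit gene Atp5b by 0.24 and the stalk gene Atp5pb by 0.24 on 1 of its 2 probe sets.

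**Figure D2:**
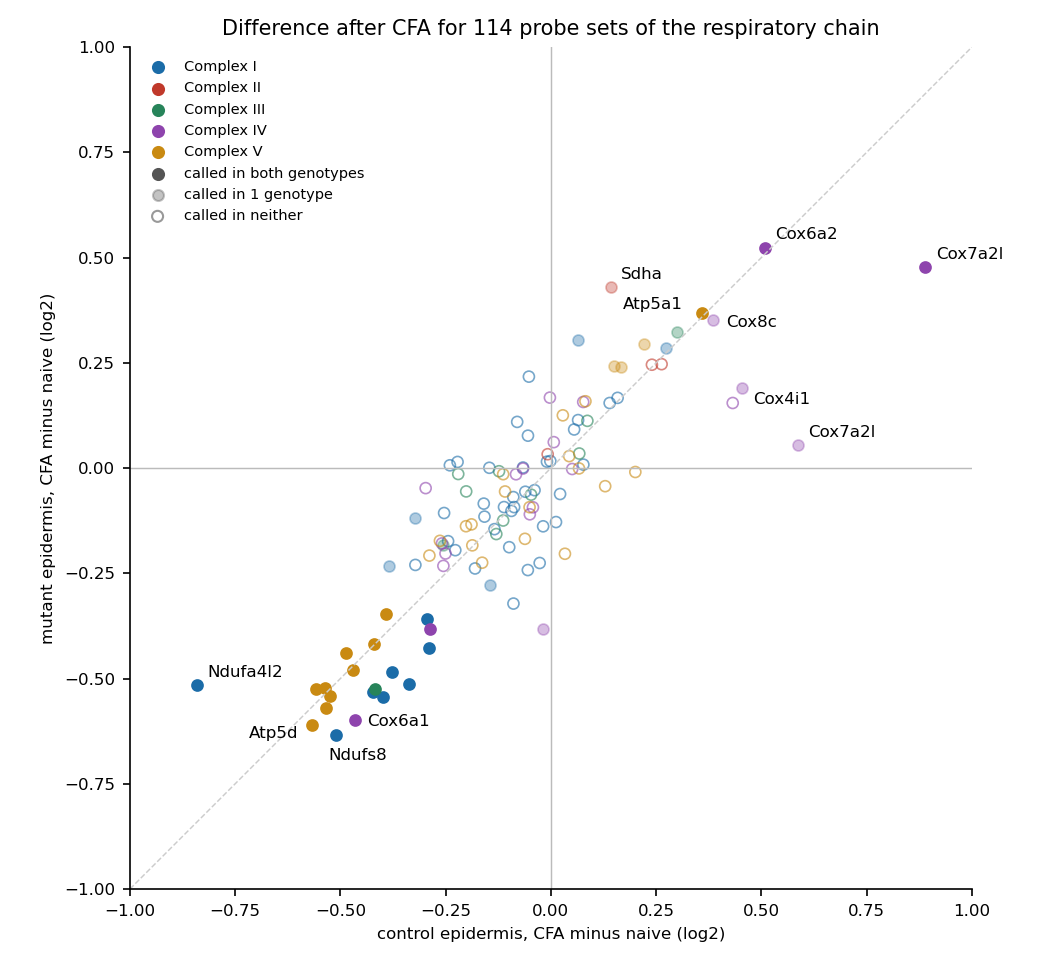
Each circle is 1 of the 114 probe sets, with its CFA minus naive log2 difference in control epidermis on the x axis and in mutant epidermis on the y axis; colour gives the complex, and filled, pale and open circles are called in both genotypes, in 1 or in neither. The 20 probe sets called lower in both lie at the lower left, Cox7a2l stands apart at the right with control differences of 0.89 and 0.59, and no probe set is called in opposite directions.

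Set side by side, 20 probe sets of 13 genes were called lower in both genotypes and 3 higher in both (Cox7a2l, Atp5a1, Cox6a2), 0 were called in opposite directions, and 76 were called in neither. Of the 20, 6 were the near-identical probe sets of Atp5l. The share of all probe sets called in both genotypes was not computed, so these counts have no baseline. In each genotype alone, the share of genes called lower was near that of all genes. It was 18% against 15.6% in control and 16.9% against 13.4% in mutant epidermis. The 13 genes were Ndufa3, Ndufa4l2, Ndufa7, Ndufa8, Ndufb8, Ndufc1 and Ndufs8 of complex I, Uqcr10 of complex III, Cox6a1 and Cox7a2 of complex IV, and Atp5d, Atp5g1 and Atp5l of complex V. Of these calls, 15 probe sets of 9 genes kept their direction and their side of the threshold in both genotypes under every one of 14 alternatives run for each comparison, including each single array left out: Atp5d, Atp5g1, Atp5l, Cox6a1, Ndufa3, Ndufb8, Ndufc1 and Ndufs8, which fell, and Cox7a2l, which rose. That statement does not cover the 2-fold threshold of the study's methods, which no member passed. Nor does it cover every probe set of the 9 genes. In control epidermis a probe set of Ndufc1 lost its call under a further quantile normalization, among other alternatives. The second probe set of Cox7a2l was not called in mutant epidermis. Ndufa4l2 was not among the 9 genes. An unmoderated linear model, without limma's shared variance, called it in neither genotype. In mutant epidermis its call was also lost when all probe sets of the array were tested. The same held without naive mutant replicate 1 or 3 and without CFA mutant replicate 1 or 3.

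**Figure D3:**
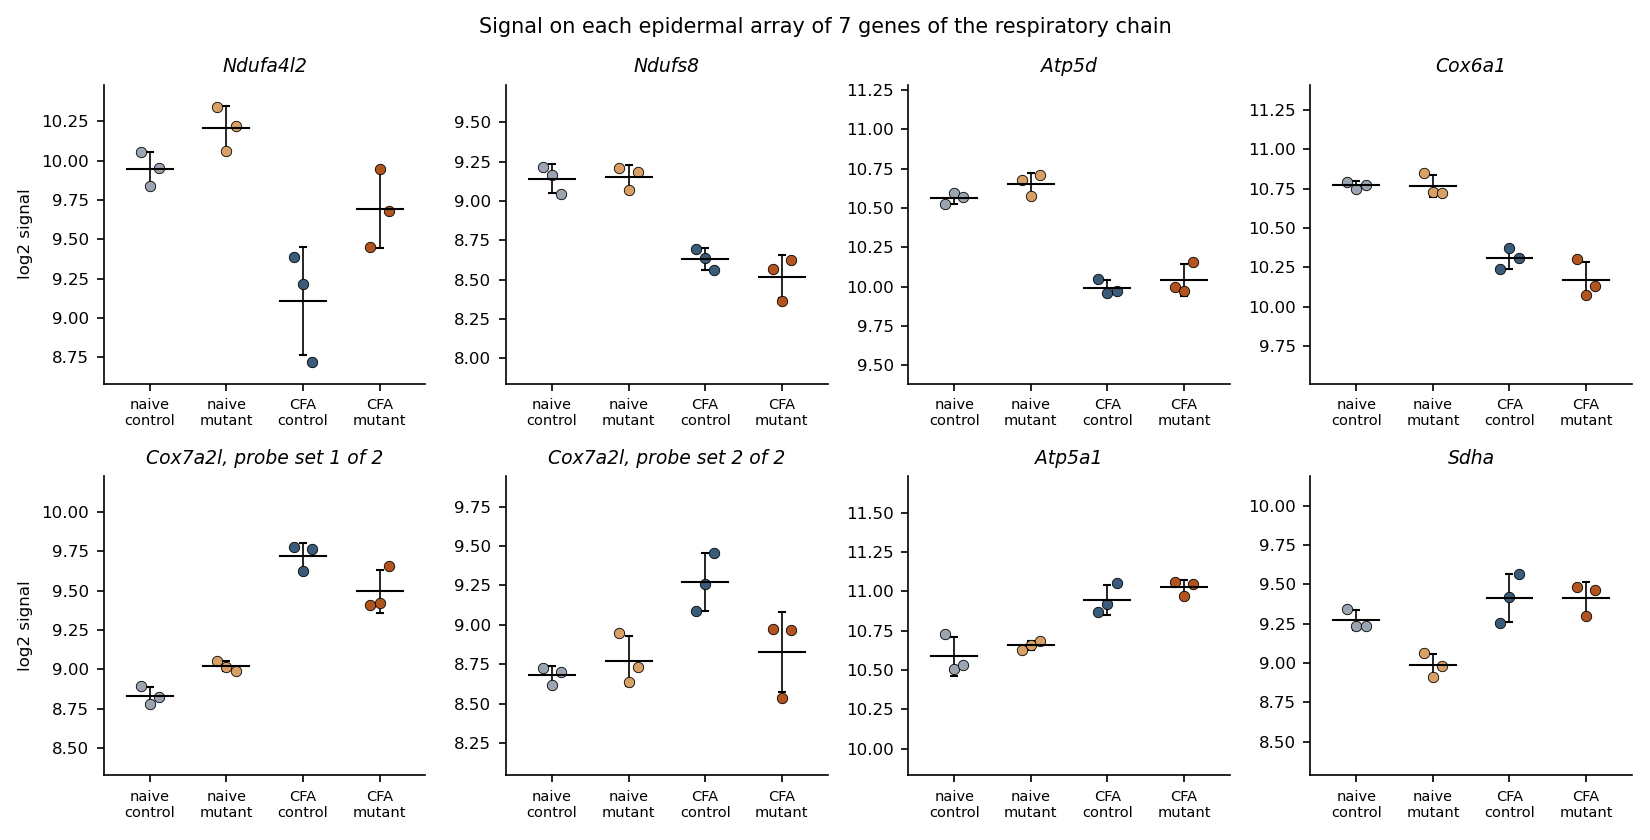
Points are the log2 signals of the 3 arrays in each epidermal group, with the mean as a line and the SD as a bar, for 7 genes; all panels span the same range of the log2 axis. Ndufs8, Atp5d and Cox6a1 lie lower on all 6 CFA arrays than on all 6 naive arrays, Ndufa4l2 spreads from 8.72 to 9.94 after CFA, and the second Cox7a2l probe set is high on the CFA control arrays and not on the CFA mutant arrays.

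Whether the response to CFA itself differed between genotypes was asked with the interaction term over the 12 epidermal arrays. None of the 114 probe sets passed in limma or in the unmoderated model (0 called, against 0.0256% of all probe sets). Without adjustment, p was under 0.05 for 2 larger and 3 smaller responses, against 8.26% of all probe sets. Cox7a2l gave the smallest p: the response of its probe sets was smaller in the mutant by 0.41 ± 0.12 (unadjusted p = 0.00395, adjusted p = 0.355) and 0.53 ± 0.18 (unadjusted p = 0.0123, adjusted p = 0.459). The response of Sdha was larger in the mutant by 0.29 ± 0.13 (adjusted p = 0.593) and that of Ndufb2 by 0.24 ± 0.11 (adjusted p = 0.58). The largest estimates of complexes I, III and V were 0.32 ± 0.23 for Ndufa4l2 (adjusted p = 0.739), 0.21 for 1 of 3 Uqcrb probe sets (adjusted p = 0.739) and -0.24 for Atp5e (adjusted p = 0.679). For 106 of the 114 probe sets the 95% interval of the difference in response lay within 1.5-fold, as it did for 18230 of all 23410 probe sets. Calls made in 1 genotype alone are therefore not shown to differ between genotypes.

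The comparison of mutant with control mice gave 0 calls among the members in naive epidermis, CFA epidermis and DRG, by limma and by the unmoderated model. Over all probe sets, limma called 0.0299% in naive epidermis, 0.179% in CFA epidermis and 0.0726% in DRG. With p under 0.05 and no adjustment, 5 members were higher and 8 lower in naive epidermis (8.94% of all probe sets in either direction), 2 higher and 6 lower in CFA epidermis (8.96%), and 3 higher and 7 lower in DRG (7.15%). The median difference of the members was -0.05 in naive epidermis, -0.05 in CFA epidermis and -0.04 in DRG. The 95% intervals lay within 1.5-fold for 112 of 114 probe sets in naive epidermis, 109 in CFA epidermis and 113 in DRG, so that for most members the intervals leave room for differences below 1.5-fold and not above. Most of all 23410 probe sets had such intervals too: 22442 in naive epidermis, 21467 in CFA epidermis and 22587 in DRG.

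Ndufs5 and Ndufc2, both accessory subunits of complex I, are described first among the genotype differences: Ndufs5 had the largest difference of complex I in all 3 settings, and Ndufc2 had no overlap between genotypes in any of them. Ndufs5 read 7.41, 7.21 and 7.75 in naive control and 7.89, 7.89 and 7.86 in naive mutant epidermis, and 7.46, 7.18 and 7.01 in CFA control against 8.07, 7.77 and 7.82 in CFA mutant epidermis. In DRG the values were 8.86, 8.34 and 8.49 in control and 8.69, 8.79 and 9.11 in mutant mice. The mutant arrays lay above the control arrays in both epidermal settings and overlapped with them in DRG. The differences were 0.42 ± 0.13 in naive epidermis (adjusted p = 0.475), 0.67 ± 0.13 in CFA epidermis (unadjusted p = 0.000607, adjusted p = 0.108) and 0.30 ± 0.15 in DRG (adjusted p = 0.715). The CFA difference was called with the 4 epidermal groups in 1 fit (adjusted p = 0.0401) and with the replicate block (adjusted p = 0.0126), over a range of 0.0126 to 0.606 in 14 alternatives. A second probe set, which Ndufs5 shares with its pseudogene copy Ndufs5-ps, differed by only 0.14, 0.16 and -0.06 in the same comparisons.

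Ndufc2 was lower in the mutant in all 3 settings. It read 9.32, 9.18 and 9.06 against 9.03, 8.75 and 8.71 in naive epidermis, 9.11, 9.11 and 9.14 against 8.83, 8.63 and 9.03 in CFA epidermis, and 10.04, 10.17 and 10.18 against 9.69, 9.90 and 9.91 in DRG. No control array overlapped with a mutant array within any setting. The share of all probe sets without overlap was not computed for any setting. The differences were -0.36, -0.29 and -0.30, with unadjusted p = 0.0101, 0.0282 and 0.00699 and limma adjusted p = 0.475, 0.472 and 0.482. It was the 1 member of the 29 probe sets (0.124% of all) that had an unadjusted p under 0.05 in the same direction in all 3 settings.

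**Figure D4:**
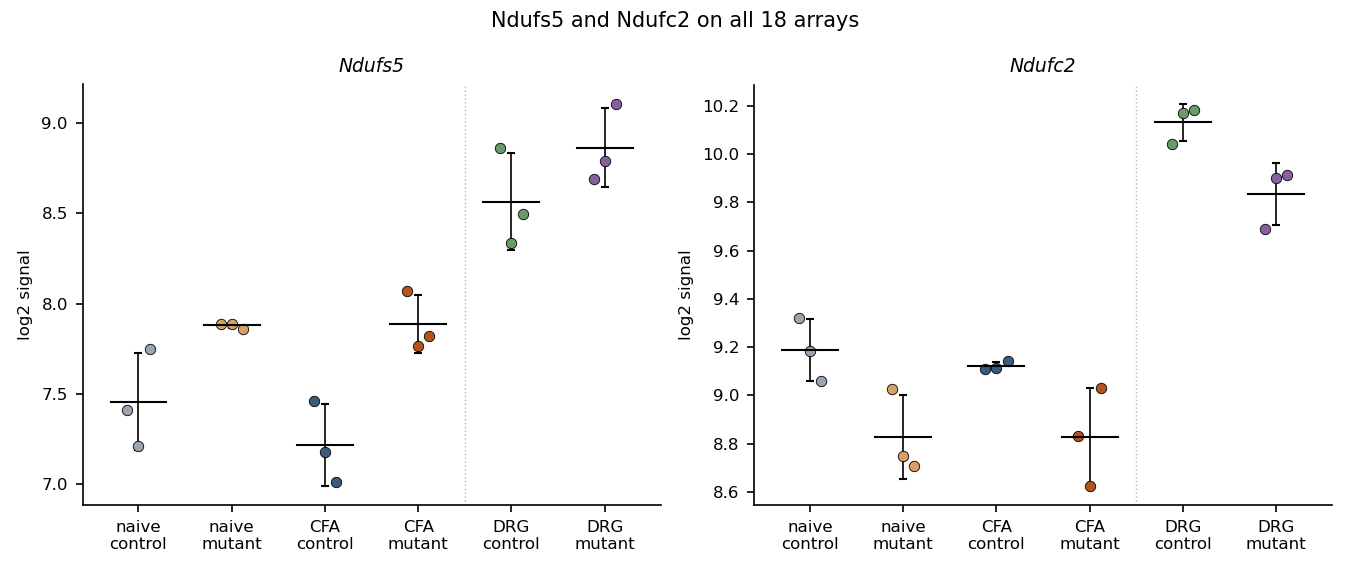
Points are the log2 signals of Ndufs5 and Ndufc2 on all 18 arrays, with the group mean as a line and the SD as a bar; the dotted line parts epidermis from DRG, whose levels are not comparable. Ndufs5 is higher on mutant than on control arrays in epidermis, by 0.42 naive and 0.67 after CFA, and Ndufc2 is lower in all 3 settings, by 0.36, 0.29 and 0.30, although neither passed the adjusted threshold.

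Outside complex I, the largest genotype differences of each complex were small. In naive epidermis these were Sdha (-0.29), Uqcrh (-0.12), Cox7b2, which is below background, and Atp5md (-0.15). In CFA epidermis they were Sdhd (-0.13, which came to 0.0009 without CFA mutant replicate 2), Uqcrb (0.14), the second Cox7a2l probe set (-0.44) and Atp5e (-0.28). Ndufa4l2 was higher in the CFA mutant by 0.58 ± 0.18 (unadjusted p = 0.00951, adjusted p = 0.341), and its arrays did not overlap (8.72 to 9.39 against 9.45 to 9.94). Macrophage and monocyte markers, 8 in all, also differed between these groups, with a mean of 5.75 to 5.90 in CFA control and 5.39 to 5.54 in CFA mutant epidermis and 2 of them called lower in the mutant (Fcgr3 and Csf1r). The 3 Langerhans cell markers averaged 7.82 to 7.92 in CFA control and 7.38 to 7.57 in CFA mutant epidermis. The part of either cell type in these values was not tested. In DRG the largest were Sdhc (0.13), Uqcrc1 (0.26), Cox6b1 (-0.15) and Atp5k (-0.29). Without DRG control replicate 1, Uqcrc1, a core protein of complex III, was called higher (0.41, adjusted p = 0.0492, in a range of 0.0492 to 0.998 over 13 alternatives).

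Other mitochondrial genes were read from 7 lists. After CFA, the mitochondrial ribosome had 16 of 77 measured genes lower and 4 higher in control, and 14 lower and 5 higher in mutant epidermis, against 15.6% of all genes lower and 11.4% higher in control and 13.4% and 12.7% in mutant epidermis. The medians of the list were -0.13 and -0.08 beside the 0.03 and 0.04 of all probe sets. Upper quartiles over all genes were lower after CFA too, and the part of that offset in these medians was not tested. Mrpl14 fell by 0.71 and 0.90 and Mrpl20 by 0.54 and 0.68 in control and mutant. Among 35 assembly factors of complexes I to V, 5 were lower and 3 higher in control and 5 lower and 7 higher in mutant, counts to be read against the same background shares. Foxred1, which assembles complex I, fell by 0.80 and 0.62, the copper chaperone gene Cox17 fell by 0.75 and 0.55, and Tmem126b rose by 0.58 and 0.57.

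Of 17 genes of the citric acid cycle and pyruvate dehydrogenase, 0 rose and 2 fell in control, Sucla2 by 0.52 and Idh3a by 0.32. In mutant epidermis 5 rose and 1 fell, led by Pdha1 (0.49) and Dld (0.43), and none of the list was called for a difference in response between genotypes. The counts of this and the lists that follow stand against the same shares of all genes, 11.4% higher and 15.6% lower in control and 12.7% and 13.4% in mutant epidermis. Of 16 genes of electron carriers and supply, 1 rose and 1 fell in control and 3 rose and 1 fell in mutant, where cytochrome c (Cycs) rose by 0.41 and Coq7, an enzyme of ubiquinone synthesis, fell by 0.32. The 12 measured nucleotide, phosphate and outer membrane carriers gave 2 and 3 calls, all higher: the creatine kinase gene Ckmt1 rose by 0.45 and 0.41 and the ADP/ATP carrier gene Slc25a4 by 0.31 and 0.42. Among 19 regulators of mitochondrial biogenesis 5 rose and 2 fell in each genotype. The GABP subunit gene Gabpb1 fell by 0.59 and 0.46, Polg, the mitochondrial DNA polymerase, rose by 0.57 and 0.51, and in control epidermis the coactivators Ppargc1a and Ppargc1b went opposite ways, by -0.52 and 0.53. Of 26 listed names of mitochondrial DNA genes 2 were measured, and 1 of them, ND3, rose by 0.27 in mutant epidermis. None of these 7 lists had a call between genotypes.

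Epidermis and DRG were compared by rank, since the arrays of the 2 tissues do not share a distribution and no test was made. Each probe set was placed as a percentile among the 23410 gene-paired probe sets of its own array, and the percentiles of a gene's probe sets were averaged. Of the 89 genes, 66 stood higher in naive control DRG and 23 higher in naive control epidermis, with a median shift of 1.98 percentile points toward DRG. Over all 23410 probe sets, 10393 stood higher in DRG and 13017 higher in epidermis, with a median of -0.95. The median shift was 3.14 for complex I, 3.83 for complex II, -2.18 for complex III, 1.96 for complex IV and 1.45 for complex V.

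Ndufa4l2 had the widest gap of the 89 genes and the opposite direction to most of complex I. It stood at percentile 95 in naive control epidermis (94.8 to 95.3 over the 3 arrays) and at 29.1 in control DRG (28.1 to 30.9), a gap of -65.9 points, and in DRG it passed background on 2 of 6 arrays. Its paralogue Ndufa4 stood at 95.4 and 97.2 in the 2 tissues. Ndufb3 and the assembly factor genes Ndufaf3 and Ndufaf5 ranked higher in DRG by 22.9, 20.9 and 16.4 points, Ndufb2 by 14.6 and Sdhb by 13.1. Toward epidermis, Atp5e had a gap of -10.5 points and Cox8c of -8.36. In complex III, Uqcrc1 had the widest gap, -5.83, from percentile 93.5 in epidermis to 87.7 in DRG.

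The isoform genes of complex IV shifted by 9.71 points or less between tissues, with Cox7a1 and Cox8c the widest. Cox4i1 stood at 87.8 in epidermis and 93.0 in DRG, and Cox4i2 at 47.2 and 45.0. Cox6a1 stood at 96.9 and 98.9, Cox6a2 at 52.4 and 54.6. Cox6b1 was at 96.7 and 98.9 and Cox6b2, a testis form, at 31.5 and 30.8. The muscle form Cox7a1 was at 38.2 and 47.9, Cox7a2 at 84.4 and 86.9 and Cox7b at 87.9 and 91.3. Cox8a stood at 92.4 and 93.1, Cox8b at 24.5 and 29.7 and Cox8c at 40.7 and 32.3. Cox8b was above background on 0 of 3 naive control epidermis arrays and 2 of 3 control DRG arrays, and Cox6b2 on 2 of 3 in each tissue, so that their ranks are not measured levels. The Cox7b values are means of 2 probe sets, and percentiles are compared between tissues for 1 gene and not between genes.

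**Figure D5:**
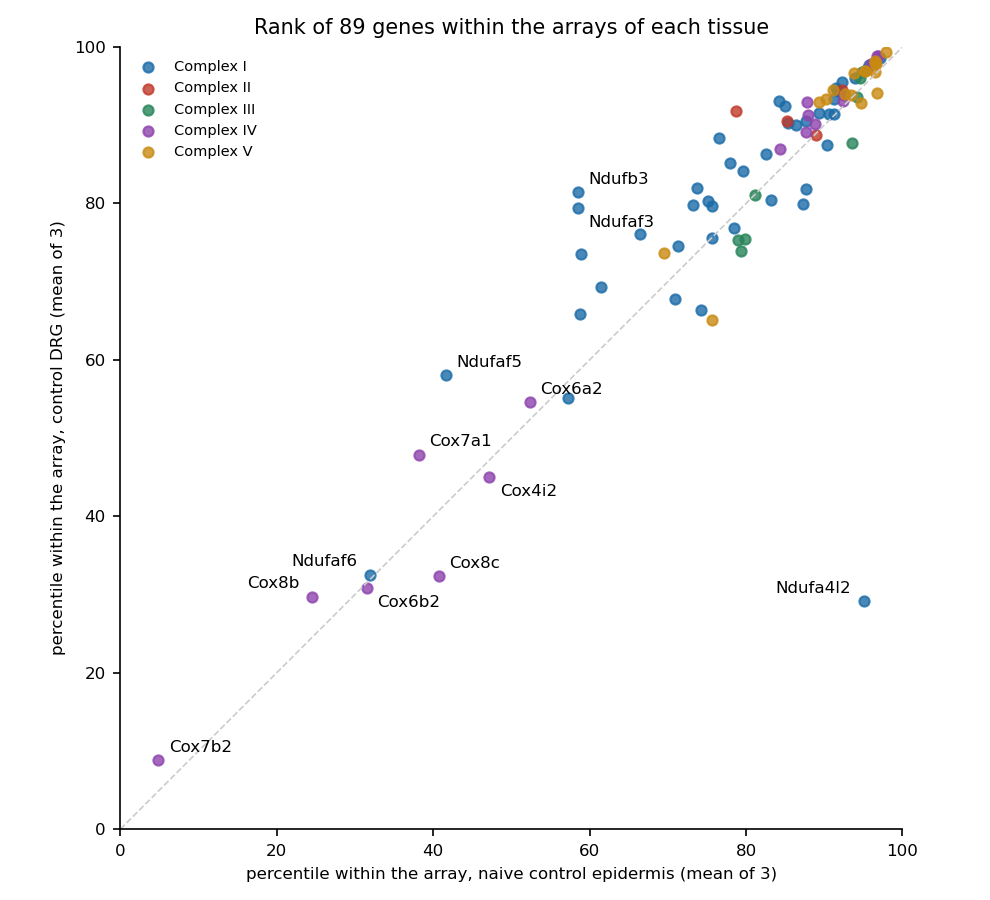
Each point is 1 of the 89 genes, placed by its mean percentile within the 3 naive control epidermis arrays (x axis) and the 3 control DRG arrays (y axis); the dashed line marks equal rank and colour gives the complex. Most genes lie in the upper right on or just above the line, Cox7a1, Cox8b and Cox6b2 lie low in both tissues, and Ndufa4l2 lies far below the line at 95 and 29.1.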

How the data were processed

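RNA from epidermis and lumbar DRG of control and mutant mice had been hybridised to Affymetrix Mouse Gene 1.0 ST arrays (18 arrays, 6 groups of 3). The deposited values are log2 signals per probe set, which the authors obtained with RMA in Partek (Genomics Suite 3 in the study's methods); no annotation version was given in the sources used here. RMA quantile normalization did not leave 1 common distribution across tissues, so tests were run within a tissue. Genes were named from the GEO platform annotation. limma 3.58.1 (R 4.3.3; lmFit and eBayes, two-sided, no covariates) was fitted to the arrays of each comparison over the 23410 probe sets paired with a gene, with Benjamini-Hochberg adjustment over all of them, and calls are adjusted p-values under 0.05. The interaction used all 12 epidermal arrays. Tables and figures were made with Python 3.11.15 and pandas 2.3.3. Scripts were tested on simulated data.

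Same-numbered arrays did not consistently deviate together, so the replicate number was not used as a block. Between CFA mutant and CFA control epidermis their correlations were 0.002, 0.023 and 0.233 for replicates 1, 2 and 3. Arrays of different number gave -0.151 to 0.149 there. The members and the gene and marker lists were chosen with earlier results of these data known. Named were all members called in control epidermis after CFA, the 6 largest changes of each complex in mutant epidermis after CFA, the largest difference of each complex in every comparison, tissue isoforms, the Sdh genes and up to 4 called genes of each other list; Ndufa13, Ndufaf2, Ndufb2, Atp5b, Atp5pb, Ndufc2, Ndufb3, Ndufaf3 and Ndufaf5 were named after their values were seen. Probe sequences were not used here, so cross-hybridisation among near-identical gene copies could not be checked. The number of arrays limits the precision, and p-values measure the spread between 3 arrays a group.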

Additional observations from a re-analysis of the deposited data

Results flagged for a closer look

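Atp5md, a small membrane subunit of the ATP synthase with 3 probe sets, had genotype differences of opposite sign in the tissues, none of them called. In naive epidermis the mutant minus control difference was -0.11 and -0.15 on 2 of its probe sets, with every mutant array below every control array, and in DRG it was 0.17 and 0.16 on the same probe sets, with every mutant array above every control array. The unadjusted limma p-values were 0.127 and 0.0634 in naive epidermis and 0.0317 and 0.0374 in DRG (adjusted p = 0.627, 0.571, 0.678 and 0.683). On the third probe set the differences were -0.12, with genotypes that overlapped, and 0.15. The share of all probe sets whose genotypes do not overlap was not computed, so the separation has no baseline. The 3 probe sets moved nearly alike and are not 3 independent observations. The difference between tissues was not tested.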

How the results depend on the processing

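At a 2-fold change the members called in either direction after CFA came to 0 in control and 0 in mutant epidermis. In control epidermis after CFA, a further quantile normalization gave 13 members higher and 15 lower and an unmoderated linear model 2 higher; leaving out 1 array gave 4 to 6 higher and 16 to 26 lower. In mutant epidermis the replicate block gave 6 higher, and leaving out 1 array 5 to 7 higher and 20 to 24 lower. Between genotypes, an unadjusted p gave 5 higher and 8 lower in naive epidermis, 2 and 6 in CFA epidermis, 3 and 7 in DRG and 2 and 3 for the difference in CFA response. In CFA epidermis 1 member (Ndufs5) was called higher with all groups in 1 fit and 1 with the replicate block, and in DRG leaving out 1 array gave 0 to 1 higher (Uqcrc1). The replicate block changed no other call between genotypes; after CFA it kept 22 of 29 calls in control and 28 of 32 in mutant epidermis. Same-numbered arrays correlated at -0.24 to 0.23, which does not show pairing. The Sdhd difference in CFA epidermis was -0.3004 to 0.0009 with 1 array left out, and turned in sign without CFA mutant replicate 2. The mean CFA difference of the complexes, under alternatives chosen after seeing the data, was -0.0572 (complex I, control), 0.0477 and 0.0168 (complex III, control and mutant), 0.092 and 0.0186 (complex IV) and 0.0187 (complex V, control) with a further quantile normalization, and 0.011 and -0.0313 for complex IV with median centring. The median tissue shift was 1.423 points when ranked among all probe sets and 1.86 to 2.03 with 1 array left out. Of the values of single members under all alternatives, 990 kept their direction and side of the threshold, 134 lost and 13 gained a call and 1 turned in sign. With 3 arrays a group, small differences stay below what the tests can call, and dim genes such as Cox7b2 carry no usable change.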
